A study of Mus musculus with 2 samples.

Results

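The 56 genes described here act around the G2 phase and mitosis of the cell cycle. The list is one of symbols, drawn up with earlier results of these data known, and all 56 were found among the 27998 genes of the deposited matrices. They came from droplet single-cell RNA sequencing of the pancreas of 2 C57BL/6 mouse embryos at embryonic day 13.5, where the 3' end of each captured transcript is read with a random tag, so that molecules are counted as unique molecular identifiers (UMIs). One embryo was a control. The other is titled knockout, in a series on Dpy30, a shared core subunit of the Trithorax group complexes that methylate histone H3 at lysine 4, and its design names that genotype Dpy30∆P. The sources used here do not give the control's genotype, the allele, the deleted part of the gene or the driver of the deletion. With a single embryo and library on each side, every difference lacks a replicate check, and neither a test between conditions nor a p-value could be given.

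Transcripts of most such genes build up from the end of DNA synthesis to mitosis and are lost when it ends, while some members, such as the insulator protein gene Ctcf, are expressed in many cells that do not divide. Cyclin-dependent kinase 1 (Cdk1) with B-type cyclins drives entry into mitosis, Polo-like and Aurora kinases build the spindle, and the anaphase-promoting complex with Cdc20 ends it by destroying cyclins. In the embryonic pancreas, tip and trunk progenitors divide, and cells with much Neurog3, the transcription factor that starts endocrine differentiation, mostly leave the cycle.

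The control library held 3900 barcodes with a median of 6825.5 UMIs, and the library labelled knockout 3044 with a median of 8049. After filters 3749 and 2938 cells were analysed, and 22 barcode sequences occurred in both libraries. The embryos were of opposite sex, with 2 against 56334 UMIs of the X-inactivation RNA Xist and 1759 against 0 UMIs of the Y-linked Ddx3y. In each pair of values written with "against", the control comes first. Dpy30 itself stood no lower in epithelial cells under the knockout label, at 225 against 265.1 CPM (a gene's UMIs scaled to the total UMIs of the class) over the whole epithelium, 241 against 266 in tip, 221 against 272 in trunk, 97.6 against 112 in mesenchyme and 183 against 148 in mesothelium. A 3' tag outside a deleted part checks nothing, so the genotype is known from the label alone.

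Cells were classed by UMIs of marker genes, none of them among the 56. The epithelium (716 against 453 cells) was divided in order into cells with at least 3 UMIs of Chga, a granule protein of endocrine cells (71 against 21), cells with at least 5 UMIs of Neurog3 (123 against 54), cells with 1 to 4 UMIs of Neurog3 (105 against 52), tip cells with at least 30 UMIs of 14 acinar enzyme genes (205 against 182), and the remaining trunk cells (212 against 144). The tip to trunk boundary cuts a continuum. Outside the epithelium, 2539 against 2047 cells were mesenchyme and 203 against 187 mesothelium, the cell layer that covers the organ, and 159 cells of each library met no gate. Markers checked but not used for gating followed the names in the control, with the acinar transcription factor Ptf1a at 48.0 CPM in tip and 2.21 in trunk, and the ductal osteopontin gene Spp1 at 1032 CPM in tip and 3713 in trunk. Classes differed between the libraries in their own markers as well, with the 14 acinar enzymes at 12683 against 8528 CPM in tip and the Neurog3 level at 3395 against 2417 CPM in cells with at least 5 UMIs of it. Whether these differences take part in the results below was not tested.

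Promoters of the list hold 2 short motifs that are known from genes of this phase, the cell cycle homology region (TTTGAA), which the MuvB core of the DREAM complex binds, and the CCAAT box. RefSeq promoter windows (build GRCm38.p6, 250 bases before to 50 bases after a start) were matched for 50 of the 56 genes. TTTGAA, read on both strands, was found in 36 of these 50 genes (72.0%), against 20.2% of 27025 genes with a promoter and 5 of 27 S phase genes (18.5%). Within 50 bases of a start it was found in 29 of 50 genes (58.0%), against 5.72% of all genes. CCAAT, likewise on both strands, was found in 39 of 50 (78.0%), against 41.1% of all genes and 18 of 27 S phase genes (66.7%). A match is a description of these letters and not a binding site. Only these exact letters were searched, so a gene without a match may still hold a variant of the element. The 120 bases before the start are shown for 4 genes that were lower in tip, trunk and mesothelium of the library labelled knockout and hold TTTGAA near the start, for Ccnb1, which was lower without it, and for 1 of the 2 listed starts of Cbx5, a chromatin protein that was near the same level in both libraries. These genes are picked examples, and motif and ratio did not always go together. Cks1b holds TTTGAA near a start and had a log2 ratio of only -0.22 in tip. Birc5 and Nusap1 hold no TTTGAA in their windows and were lower there. Whether the motif goes with the ratio was not tested. Capitals mark TTTGAA or its reverse TTCAAA and CCAAT or its reverse ATTGG, written 5′ to 3′ along the gene's own strand.
Cdk1: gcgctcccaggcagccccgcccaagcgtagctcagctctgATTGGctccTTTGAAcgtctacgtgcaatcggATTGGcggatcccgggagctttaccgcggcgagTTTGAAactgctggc
Top2a: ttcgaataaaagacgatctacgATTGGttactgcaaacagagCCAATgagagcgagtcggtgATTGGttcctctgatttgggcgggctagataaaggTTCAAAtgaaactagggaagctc
Ube2c: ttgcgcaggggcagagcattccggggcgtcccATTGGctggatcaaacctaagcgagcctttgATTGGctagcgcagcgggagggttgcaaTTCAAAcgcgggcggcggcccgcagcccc
Cdc20: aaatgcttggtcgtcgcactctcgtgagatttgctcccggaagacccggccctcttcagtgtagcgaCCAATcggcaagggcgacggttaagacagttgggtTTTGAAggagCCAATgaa
Ccnb1: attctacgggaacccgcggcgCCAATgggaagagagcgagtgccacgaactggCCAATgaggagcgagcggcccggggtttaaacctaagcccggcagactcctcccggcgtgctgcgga
Cbx5: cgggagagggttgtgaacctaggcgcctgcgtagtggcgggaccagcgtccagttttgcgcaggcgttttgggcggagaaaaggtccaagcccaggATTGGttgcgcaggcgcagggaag
These windows lie at chr10:69352913-69353032 (Cdk1, minus strand), chr11:99024190-99024309 (Top2a, minus), chr2:164769809-164769928 (Ube2c, plus), chr4:118437344-118437463 (Cdc20, minus), chr13:100786487-100786606 (Ccnb1, minus) and chr15:103239853-103239972 (Cbx5, minus). Cdk1 holds 2 copies of TTTGAA and 2 of CCAAT, Top2a 1 and 3, Ube2c and Cdc20 1 and 2 each, Ccnb1 0 and 2, and this start of Cbx5 0 and 1.

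The first comparison asked how much of each class's RNA came from the list. In the control, the 56 genes took 0.826% of the UMIs of mesothelium, 0.802% of trunk, 0.751% of cells with 1 to 4 Neurog3 UMIs, 0.714% of tip, 0.508% of mesenchyme, 0.443% of cells with at least 5 Neurog3 UMIs and 0.186% of cells with at least 3 Chga UMIs. Among these classes the division genes thus stood highest in the progenitor classes and the mesothelium and lowest in the hormone lineage. In tip the share was lower in the library labelled knockout, at 0.714% (95% exact Poisson interval 0.706 to 0.722) against 0.420% (0.413 to 0.427). The ratio of the library labelled knockout over the control was 0.589 (0.577 to 0.601). In trunk the share was 0.802% against 0.569%, a ratio of 0.709 (0.693 to 0.725). In cells with 1 to 4 Neurog3 UMIs it was 0.751% against 0.516%, a ratio of 0.687 (0.661 to 0.714). This last value rested on the gates, for its log2 ratio of -0.54 was -0.31 with markers scaled to 10000 UMIs per cell and -0.056 (-0.14 to 0.029) with epithelial gates set after thinning. The mesothelium differed most among these classes, with 0.826% against 0.460% and a ratio of 0.556 (0.542 to 0.571). Mesenchyme stood slightly higher in the library labelled knockout, at 0.508% against 0.533%, a ratio of 1.05 (1.04 to 1.06). All intervals cover counting error alone, and they are too narrow as a measure of cells, since many UMIs of the list come from the same dividing cell. In bulk sums such as these, fewer dividing cells and less RNA per dividing cell cannot be told apart.

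**Figure D1:**
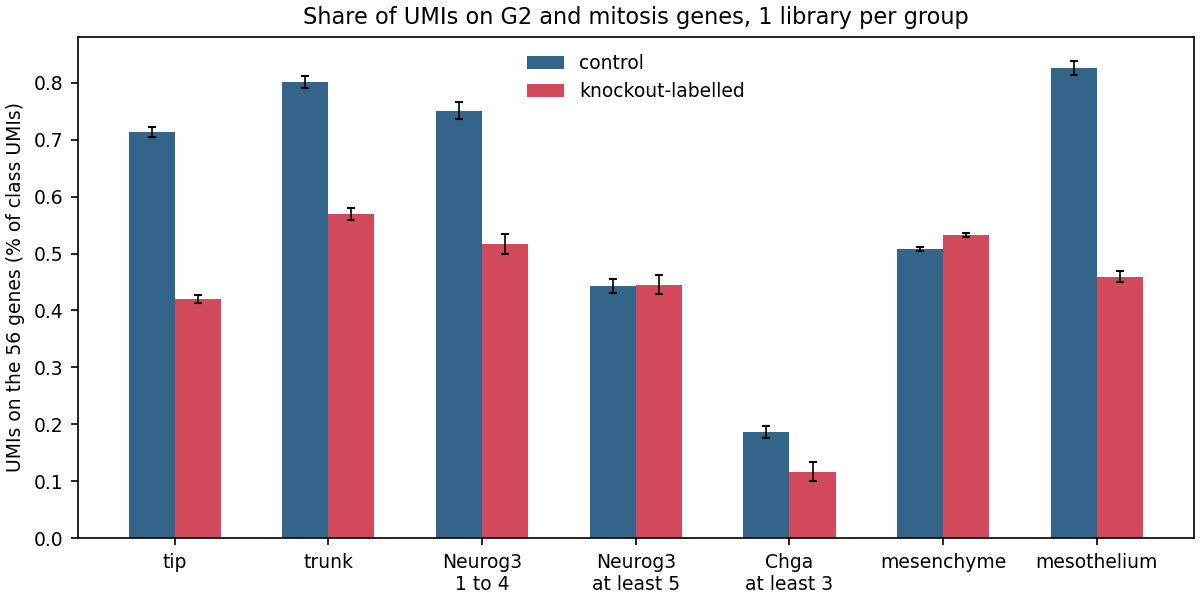
Share of each class's UMIs on the 56 genes (y axis, %) in the control and the library labelled knockout, 1 library each, with 95% exact Poisson intervals for counting error. The share is lower in the library labelled knockout in tip (0.714% against 0.420%), trunk and mesothelium (0.826% against 0.460%), and 0.508% against 0.533% in mesenchyme.

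The second comparison counted cells. Each cell was thinned to 3000 UMIs, so that depth did not set its score, and a cell with at least 20 UMIs of the list was called high. High cells made up 84 of 205 tip cells in the control (41.0%, exact Clopper-Pearson interval 34.2 to 48.0) and 31 of 182 in the library labelled knockout (17.0%, 11.9 to 23.3), a ratio of 0.416 (0.290 to 0.596). In mesothelium they were 73 of 203 (36.0%, 29.4 to 43.0) against 37 of 187 (19.8%, 14.3 to 26.2), a ratio of 0.550 (0.391 to 0.775). Both classes thus had fewer cells with many division transcripts in the library labelled knockout. In mesenchyme high cells were 421 of 2511 (16.8%, 15.3 to 18.3) against 388 of 2012 (19.3%, 17.6 to 21.1), and in cells with 1 to 4 Neurog3 UMIs 34 of 105 (32.4%) against 10 of 52 (19.2%), a ratio of 0.594 whose interval (0.319 to 1.11) includes 1.

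The trunk depended on where the line was drawn. At 20 UMIs high cells were 80 of 211 (37.9%, 31.3 to 44.8) against 39 of 144 (27.1%, 20.02 to 35.1), a ratio of 0.714 (0.519 to 0.983). At 10 UMIs they were 53.6% against 54.9%, a ratio of 1.02 (0.844 to 1.24), and at 40 UMIs 19.0% against 7.64%, a ratio of 0.403 (0.214 to 0.759). The trunk cells of the libraries therefore differed in the uppermost scores, and the median score was 11 UMIs in both. In tip the median score was 15 against 6 UMIs, and the ratio was 0.517 (0.411 to 0.649) at 10 UMIs and 0.3004 (0.141 to 0.638) at 40. The line is a cut through a range and not a cell type, and 25 control and 8 knockout-labelled tip cells lay close to it, no more than 3 UMIs away. Without thinning, the shares at 20 UMIs were 85.4% against 70.3% in tip, 67.5% against 70.8% in trunk and 52.2% against 38.5% in mesothelium, with tip cells of a median 18302 against 17555.5 UMIs and trunk cells of 12101.5 against 13819. High cells were also deeper, with a median of 23021.5 UMIs in control tip against 16183 for the other tip cells of that library.

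**Figure D2:**
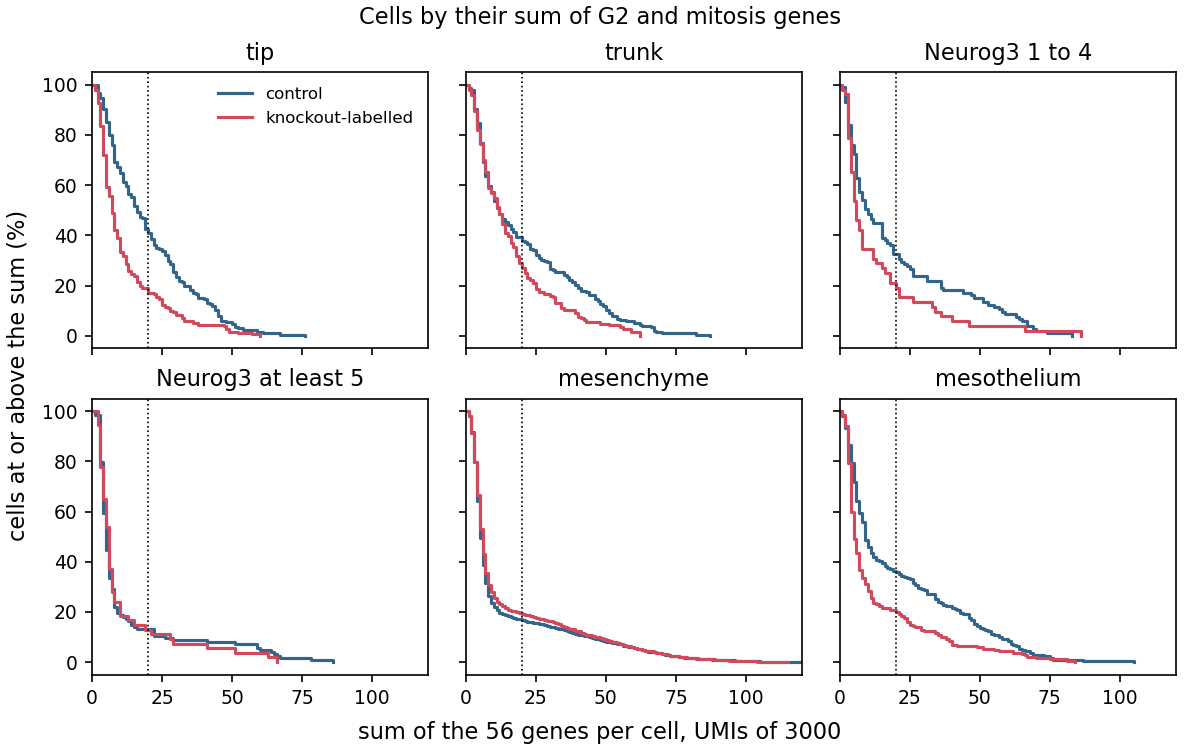
Percent of cells (y axis) whose sum over the 56 genes, after thinning to 3000 UMIs, is at or above the value on the x axis (UMIs, drawn up to 120), for 6 classes and both libraries, with a dotted line at 20 UMIs. The curve of the library labelled knockout lies below the control's in tip and mesothelium, leaves it above about 10 UMIs in trunk, and runs with it in cells with at least 5 Neurog3 UMIs (13.0% in both at the line).

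Within high cells of tip, trunk, mesothelium and mesenchyme, the share of RNA on the list was lower in the library labelled knockout. It was 1.15% against 1.08% of UMIs in high tip cells, 1.39% against 1.16% in high trunk cells, 1.58% against 1.37% in high mesothelial cells and 1.76% against 1.68% in high mesenchymal cells. In the remaining tip cells it was 0.316% against 0.235%, in the remaining trunk cells 0.255% against 0.290%, and in the remaining mesothelial cells 0.218% against 0.167%. These shares are set in part by the line itself, and they are descriptions of the cells on each side of it.

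The genes were then compared singly. In each class a gene was counted as measured with at least 20 UMIs over both libraries, and the ratio was taken as log2 of (CPM + 5) in the library labelled knockout over the control. In tip all 56 genes were measured, all 56 were lower and 41 were at least 1.5-fold lower, where 2.69% of all 9998 measured genes were at least that much lower. The median log2 ratio of the list was -0.73 in tip, beside 0.021 for all genes. In mesothelium 45 of 56 were at least 1.5-fold lower, where the share of all genes was 4.4%, with a median of -0.88 beside -0.019. In trunk 21 of 56 were at least 1.5-fold lower, where the share of all genes was 3.2%, with a median of -0.51 beside -0.0056, and in cells with 1 to 4 Neurog3 UMIs 21 of 55, where it was 7.06%. Over the whole epithelium 23 of 56 were at least 1.5-fold lower, where it was 1.94%. In mesenchyme 0 of 56 were at least 1.5-fold lower, where it was 0.809%, and the median was 0.051 beside -0.014. In none of these classes was a member at least 1.5-fold higher, where the share of all genes that much higher was 2.7% in tip, 3.8% in mesothelium, 2.65% in trunk, 7.96% in cells with 1 to 4 Neurog3 UMIs, 0.782% in the epithelium and 0.483% in mesenchyme. The counts of tip and trunk moved with the boundary between them, for with at least 100 enzyme UMIs as the tip gate, chosen after seeing the data, 26 genes were at least 1.5-fold lower in tip and 42 in trunk. The count of cells with 1 to 4 Neurog3 UMIs was 6 with markers scaled to 10000 UMIs per cell, 7 with gates set after thinning, which also gave 6 members at least 1.5-fold higher, and 12 with doubled marker minimums.

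**Figure D3:**
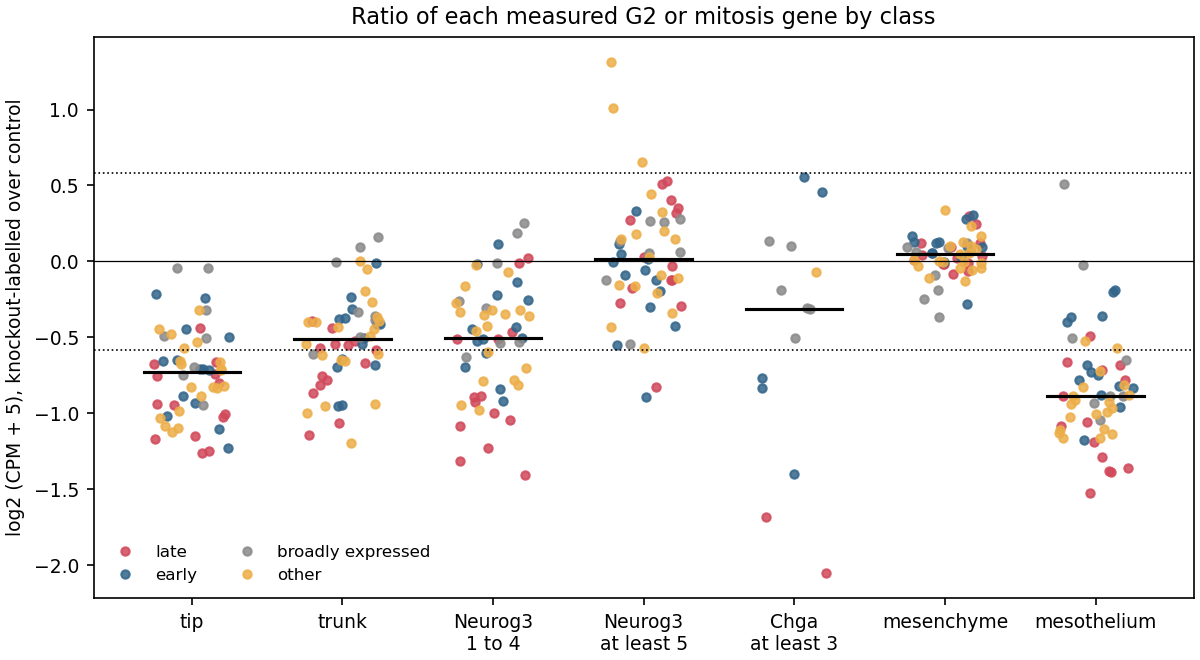
Log2 ratio of (CPM + 5), library labelled knockout over control (y axis), of every measured gene of the list in 7 classes, coloured as late, early, broadly expressed or other members. Black bars are medians and dotted lines mark 1.5-fold, and all 56 points of tip lie below 0 while those of mesenchyme lie within the dotted lines.

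Kinases, cyclins and their partners were lower in tip for 11 of 11 members, 8 of them at least 1.5-fold. Beside this and the counts of roles below, 2.69% of all genes were that much lower in tip, 3.2% in trunk and 4.4% in mesothelium. Cdk1 stood at 200.2 CPM (95% exact Poisson interval 186 to 215) in control tip and 96.6 CPM (86.4 to 108) in the library labelled knockout, a log2 ratio of -1.01. In trunk it stood at 194 against 119 CPM, in mesothelium at 181 against 90.7 CPM, and in mesenchyme at 110.3 against 116 CPM. Cdk1 was thus lower in both progenitor classes and the mesothelium, but not in mesenchyme. Ccnb1, the cyclin B1 gene, stood at 145 against 61.8 CPM in tip, 164 against 71.7 in trunk, 167 against 54.8 in mesothelium and 77.9 against 77.4 in mesenchyme, and its log2 ratio of -1.53 in mesothelium was the lowest there. Ccnb2, which encodes another B-type cyclin, differed less in tip, trunk and mesothelium, at 112 against 65.1 CPM in tip, 153 against 104 in trunk and 131 against 91.8 in mesothelium. It differed more in cells with 1 to 4 Neurog3 UMIs, at 151 against 54.0 CPM. Plk1, the Polo-like kinase of spindle assembly, stood at 62.2 against 30.01 CPM in tip, 73.6 against 38.1 in trunk, 57.2 against 18.8 in mesothelium and 33.7 against 40.9 in mesenchyme. Aurka, a centrosome kinase, had log2 ratios of -1.15 in tip, -0.78 in trunk and -1.38 in mesothelium. Cks1b and Cks2 encode small subunits that bind cyclin-dependent kinases, and they did not move alike. Cks1b stood at 419 against 360 CPM (399 to 440 and 340 to 380) in tip and at 448 against 346 in mesothelium, while Cks2 stood at 332 against 201 CPM in tip and 394 against 205 in mesothelium. Cdc25c, Nek2, Ttk and Bub1 complete the group, with log2 ratios between -0.32 and -0.88 in tip, where each stood below 25 CPM.

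The genes of protein destruction and mitotic entry had the lowest ratio of summed UMIs in the epithelium after those of cytokinesis. They took 0.0696% against 0.0378% of UMIs, a ratio of 0.542 (0.518 to 0.567). Ube2c, the ubiquitin-conjugating enzyme of the anaphase-promoting complex, stood at 413 CPM (393 to 433) in control tip and 169 (156 to 184) in the library labelled knockout, a log2 ratio of -1.26 and the lowest of the list there. It stood at 491 against 232 CPM in trunk, 413 against 196 in mesothelium and 209 against 209.9 in mesenchyme. Cdc20, the activator of that complex, stood at 130.3 against 61.5 CPM in tip, 136 against 75.6 in trunk, 167 against 65.2 in mesothelium and 76.0 against 78.1 in mesenchyme. Both genes were thus about as high in mesenchyme of one library as of the other. Cdca3, which takes part in mitotic entry, had log2 ratios of -0.71, -0.62 and -0.82 in tip, trunk and mesothelium. The ubiquitin ligase gene G2e3 had -0.69, -0.36 and -0.88.

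Of the 9 centromere, kinetochore and passenger complex genes, 8 were at least 1.5-fold lower in tip, 6 in trunk and 8 in mesothelium. Cenpf, a large kinetochore protein, stood at 163 against 94.5 CPM in tip, 234 against 136 in trunk and 306 against 131 in mesothelium. Cenpa, the histone variant that marks centromeres, stood at 148 against 82.9 CPM in tip, 159 against 116 in trunk and 222 against 102 in mesothelium. Its chaperone gene Hjurp was lower in every one of the 7 classes, including mesenchyme, where it stood at 108 against 88.0 CPM, the second lowest log2 ratio of the list there (-0.28). The passenger complex genes Birc5, Aurkb and Cdca8 had log2 ratios of -0.82, -1.10 and -0.84 in tip and -0.94, -0.88 and -1.17 in mesothelium. Aurkb thus stood beside Aurka in tip (-1.15) and above it in mesothelium (-1.38). Ndc80 and Nuf2, partners in the complex that holds microtubules, had -0.65 and -0.45 in tip, -0.94 and -0.69 in trunk, and -0.83 and -1.18 in mesothelium. The remaining motor gene of this group, Cenpe, had -0.66 in tip, -0.78 in mesothelium and 0.30 in mesenchyme, where it was among the 3 highest.

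Spindle and motor genes were lower in 15 of 15 cases in tip, 10 at least 1.5-fold, and in 15 of 15 in mesothelium, 13 at least 1.5-fold. Hmmr, which acts at the spindle poles, stood at 72.0 against 27.3 CPM in tip and 78.7 against 27.6 in mesothelium, with a smaller difference in trunk, 69.5 against 46.0 CPM. Tpx2, an activator of Aurora A, stood at 84.1 against 41.3 CPM in tip, 98.96 against 60.3 in trunk and 124 against 64.7 in mesothelium. Nusap1, a spindle microtubule protein, stood at 104 against 45.8 CPM in tip and 146 against 73.2 in trunk. Tubb4b, a tubulin that many cells express, stood at 398 against 204 CPM (378 to 418 and 189 to 220) in tip, 445 against 313 in trunk, 333 against 178 in mesothelium and 203 against 171 in mesenchyme. It is the only member above 200 CPM in control cells of the Chga class besides Hmgb2. The least different of the group in trunk was Gas2l3, at 23.2 CPM in both libraries. The 10 others (Kif11, Kif20b, Kif2c, Dlgap5, Ckap2, Ckap2l, Ckap5, Tacc3, Psrc1 and Gtse1) ranged in log2 ratio from -1.03 (Kif2c) to -0.44 (Dlgap5) in tip and from -1.11 (Gtse1) to -0.36 (Kif11) in mesothelium.

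The 4 genes of the central spindle and cytokinesis had the lowest group ratio in the epithelium. They took 0.0189% against 0.01002% of UMIs, a ratio of 0.530 (0.486 to 0.579). Prc1, which bundles the microtubules between the separating chromosomes, stood at 155 CPM (140.1 to 170.01) in control trunk and 64.8 (54.1 to 76.8) in the library labelled knockout, a log2 ratio of -1.19 and the lowest of the list in trunk. It stood at 88.2 against 42.2 CPM in tip, 165 against 74.1 in mesothelium and 67.3 against 72.4 in mesenchyme. Kif23, the motor of the same structure, stood at 45.4 against 18.1 CPM in tip and 68.1 against 33.1 in trunk. Ect2 and Anln, regulators of the contractile ring, had log2 ratios of -0.83 and -0.66 in tip and -1.13 and -1.13 in mesothelium.

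Chromosome and nuclear structure genes were the most mixed group, with 7 of 13 at least 1.5-fold lower in tip, 1 of 13 in trunk and 8 of 13 in mesothelium. Top2a, the topoisomerase that untangles sister chromosomes, stood at 276 against 143 CPM in tip, 309.7 against 231 in trunk, 344 against 193 in mesothelium and 258 against 269 in mesenchyme. Mki67, the proliferation antigen Ki-67, stood at 68.4 against 41.6 CPM in tip, 91.2 against 67.2 in trunk, 91.0 against 54.8 in mesothelium and 72.0 against 78.9 in mesenchyme. The chromatin protein gene Hmgb2 gave the most UMIs of the list, at 1539 against 936 CPM in tip, 1584 against 1272 in trunk, 1562 against 846 in mesothelium and 991 against 1111 in mesenchyme. Cdca2, a regulator of a phosphatase on mitotic chromosomes, stood at 37.4 against 13.1 CPM in tip, among the 3 lowest log2 ratios there (-1.23). By contrast, Ctcf, the insulator protein, and Cbx5, a heterochromatin protein, gave the highest log2 ratios of the list in tip (-0.041 and -0.044), in trunk (0.092 and 0.16) and in mesothelium (0.51 and -0.021). Ctcf stood at 54.2 against 79.3 CPM in mesothelium, the only member higher in that class. Kpna2, a nuclear import factor, had -1.08 in tip, -1.0 in trunk and -1.16 in mesothelium. The others (Smc4, Ncapd2, Tmpo, Lbr, Anp32e and Rangap1) lay between -0.75 (Lbr) and -0.24 (Tmpo) in tip.

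**Figure D4:**
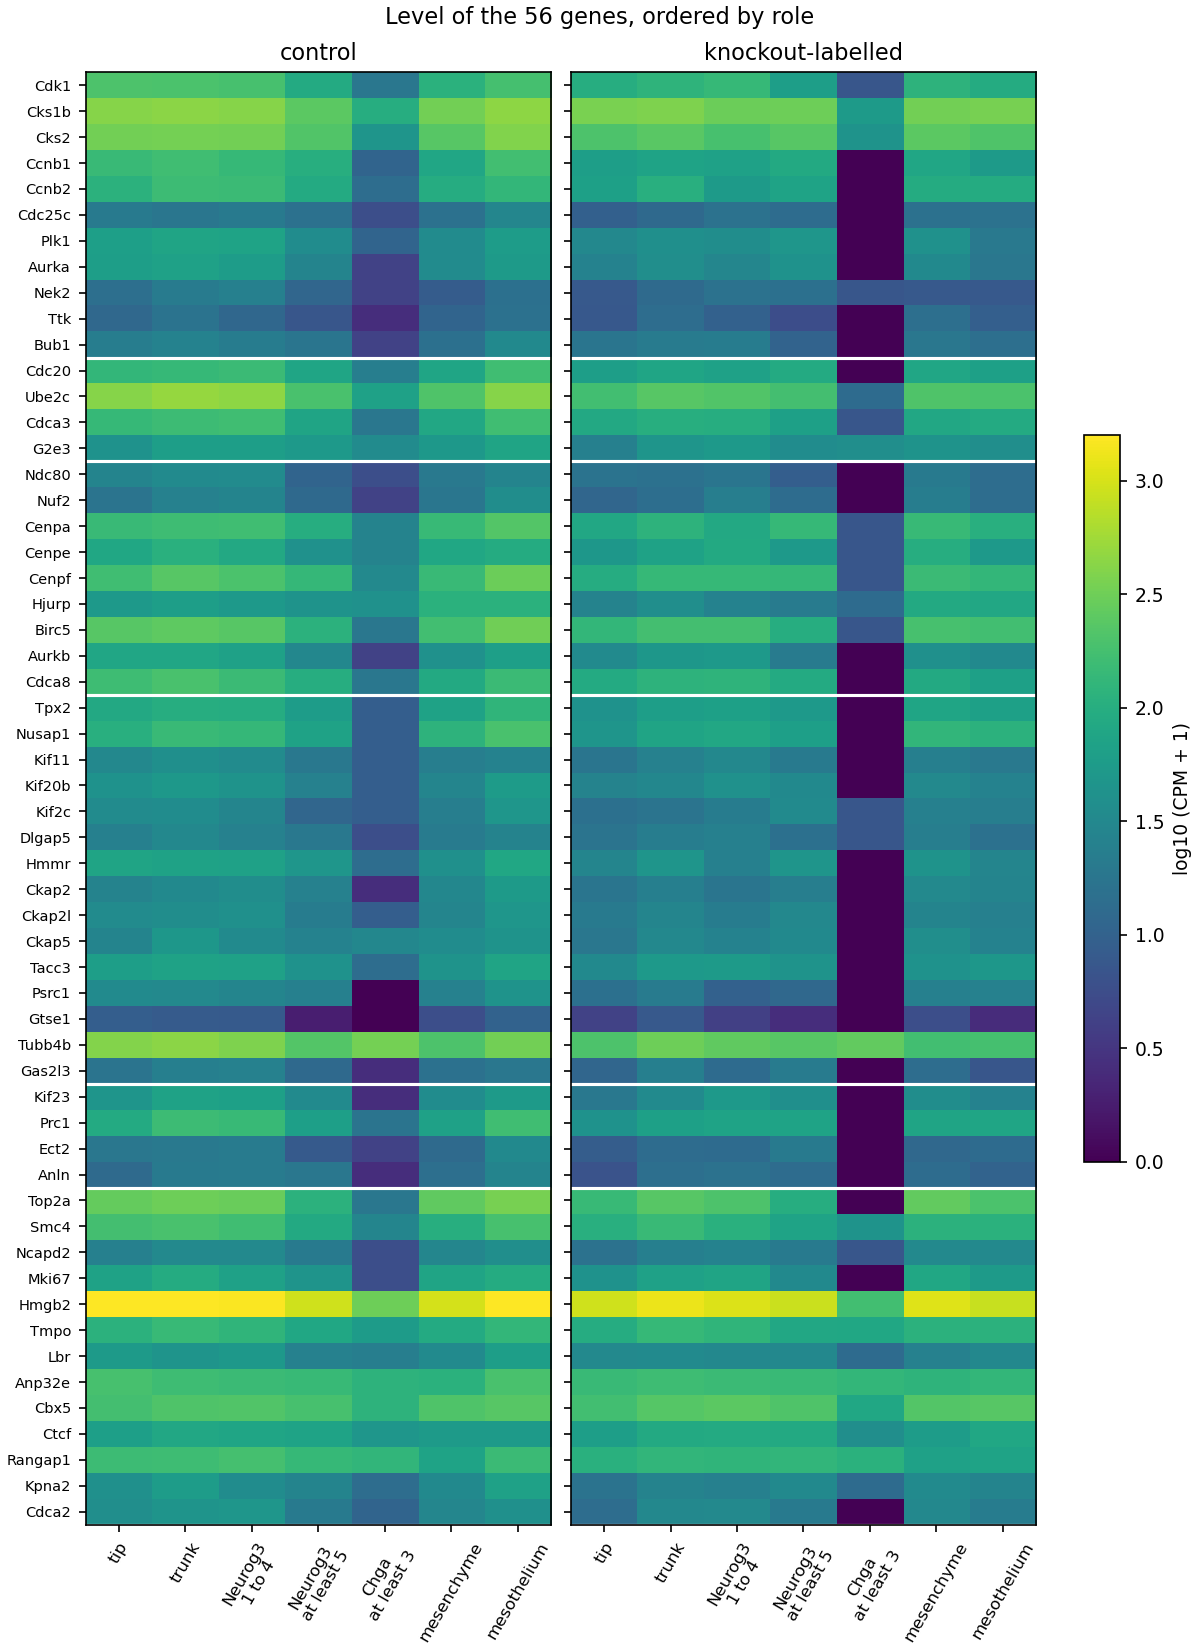
Level of each of the 56 genes as log10 (CPM + 1), in rows ordered by role with white lines between the 6 roles, for 7 classes in the control (left) and the library labelled knockout (right). In the control 31 genes were highest in mesothelium, 17 in trunk, 6 in cells with 1 to 4 Neurog3 UMIs and 2 in tip, and the Chga class is the darkest column in both libraries.

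Across the 7 classes of the control, the level of a member in its highest class was a median 7.37-fold that in its lowest, over the members with UMIs in every class. The 8 broadly expressed members (Ctcf, Cbx5, Ckap5, Rangap1, Tubb4b, Anp32e, Lbr and G2e3) spanned a median of 2.11-fold, from 1.73 to 2.70, and the 14 late members 7.57-fold. By this median they were the flattest part of the list, which their choice as broadly expressed genes in part sets beforehand. Single members overlapped, with Tmpo, which is not among them, at 2.48-fold. In tip the broadly expressed members had a median log2 ratio of -0.50, with 3 of 8 at least 1.5-fold lower, where 2.69% of all genes were.

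The third comparison set late members, whose transcripts are known to peak at mitosis (Ccnb1, Ccnb2, Cdc20, Plk1, Aurka, Cenpa, Cenpe, Cenpf, Hmmr, Dlgap5, Nek2, Ube2c, Tpx2 and Psrc1), beside early ones, which rise before it (Cdk1, Top2a, Hmgb2, Smc4, Tmpo, Mki67, Ncapd2, Ndc80, Nuf2, Kif11, Nusap1, Cks1b, Hjurp and Cdca2). In tip the late genes gave 0.154% against 0.0744% of UMIs, a ratio of 0.483 (0.461 to 0.506). The early genes gave 0.308% against 0.192% there, a ratio of 0.623 (0.604 to 0.642). Late genes were thus lower by more than early ones. Late UMIs per early UMI were 0.5001 against 0.388 in tip, a ratio of 0.775 (0.733 to 0.820), 0.550 against 0.405 in trunk, a ratio of 0.736 (0.692 to 0.783), and 0.556 against 0.424 in mesothelium, a ratio of 0.763 (0.711 to 0.818). In mesenchyme they were 0.460 against 0.444, a ratio of 0.967 (0.943 to 0.992). Among the high cells alone the quotient was 0.558 against 0.546 in tip, 0.589 against 0.517 in trunk, 0.616 against 0.549 in mesothelium and 0.573 against 0.560 in mesenchyme. The difference between the libraries was therefore smaller among high cells than over all cells of tip, trunk and mesothelium.

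Cells with at least 10 late UMIs after thinning were 31 of 205 (15.1%, 10.5 to 20.8) against 9 of 182 (4.95%, 2.29 to 9.18) in tip, 38 of 211 (18.0%, 13.1 to 23.9) against 13 of 144 (9.03%, 4.89 to 14.9) in trunk, and 41 of 203 (20.2%, 14.9 to 26.4) against 15 of 187 (8.02%, 4.56 to 12.9) in mesothelium. In mesenchyme they were 231 of 2511 (9.20%) against 198 of 2012 (9.84%). Cells with many late transcripts were thus a smaller share of tip, trunk and mesothelium of the library labelled knockout. Cells with at least 10 early UMIs but at most 4 late ones were 16.6% against 6.59% in tip, 9.95% (6.27 to 14.8) against 13.2% (8.13 to 19.8) in trunk and 10.3% against 4.81% in mesothelium.

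**Figure D5:**
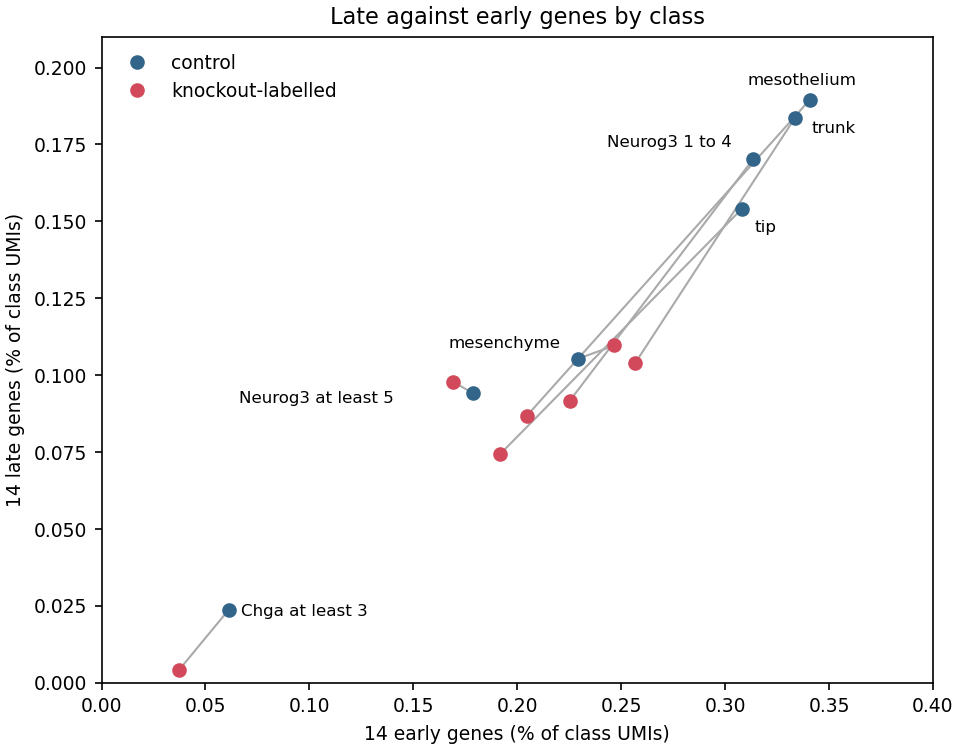
Percent of each class's UMIs on the 14 late genes (y axis) and the 14 early genes (x axis), with a line joining the control and the library labelled knockout of each class. Tip, trunk, mesothelium and cells with 1 to 4 Neurog3 UMIs lie lower on both axes in the library labelled knockout, while cells with at least 5 Neurog3 UMIs and mesenchyme lie near their control.

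Cells with at least 5 UMIs of Neurog3 did not share the lower level under the gates used here. The list took 0.443% (0.431 to 0.456) against 0.445% (0.429 to 0.462) of their UMIs, a ratio of 1.005 (0.959 to 1.05), and high cells were 16 of 123 (13.0%, 7.62 to 20.3) against 7 of 54 (13.0%, 5.37 to 24.9). Of 53 measured members 2 were at least 1.5-fold lower (Hjurp and Psrc1), where 6.69% of all genes were, and 3 were at least 1.5-fold higher (Kif2c, Ect2 and Gas2l3), where 6.55% were. These counts are near those of all genes. Kif2c, a kinesin that takes microtubules apart, stood at 10.5 CPM (5.41 to 18.3) against 33.4 (20.7 to 51.02), from 12 and 21 UMIs. Cdk1 stood at 90.7 against 60.4 CPM, Ccnb1 at 99.4 against 87.4, Cdc20 at 74.1 against 90.6, Plk1 at 34.9 against 47.7, Aurka at 27.0 against 41.3, Top2a at 113 against 98.5 and Mki67 at 44.5 against 31.8, so members went either way. The result turned on the gate. With the markers scaled to 10000 UMIs per cell the log2 ratio of the share was -0.66 and 33 members were at least 1.5-fold lower, with doubled marker minimums it was -0.71 and 30 members, and with a doubled doublet rate it was -0.22 and 13 members. A single cell held 17.0% of the list's UMIs in this class of the library labelled knockout and 7.50% in the control, and without these cells the log2 ratio was -0.12.

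Cells with at least 3 Chga UMIs held few division transcripts in either library. Their share was 0.186% (0.176 to 0.197) against 0.117% (0.100 to 0.134), and 1 control cell held 29.2% of the control's UMIs of the list in this class. Without it the control share was 0.134%. That cell was the single high one among 70, and none of 21 cells in the library labelled knockout was high, which allows a share of up to 14.3% by 3 counts of the total (exact upper bound 16.1%). Of 14 measured members 5 were at least 1.5-fold lower, where 15.2% of all genes were, and none was that much higher, where 9.9% were. Ube2c, Cenpf and Hjurp reached 20 UMIs almost wholly through the control, and the count was 1 with doubled marker minimums, with markers scaled to 10000 UMIs or with a doubled doublet rate, so nothing is read from it. The members with the most UMIs were Tubb4b at 335 against 269.8 CPM, Hmgb2 at 309 against 172, Anp32e, a histone chaperone, at 117 against 129 and Rangap1, a regulator of nuclear transport, at 126 against 110.4. The 8 broadly expressed members together took 0.0826% against 0.0675% of the UMIs of this class, a ratio of 0.816 (0.664 to 1.00), and the 14 late members 0.0237% against 0.00429%, from 146 and 7 UMIs. Of the 146 late UMIs 117 lay in the 1 high control cell, and without it the control's late share was 0.00478%. Ube2c had 41 against 2 UMIs and Cenpf 19 against 1, of which that cell held 38 and 19. Both log2 ratios turned positive with doubled marker minimums (1.18 and 1.89), with markers scaled to 10000 UMIs (0.89 and 1.14) and with a doubled doublet rate (0.85 and 1.204). Hjurp had 25 against 2 UMIs, Smc4 17 against 7 and Tmpo 35 against 13. Among members listed at 0 UMIs in the library labelled knockout were Top2a, Ccnb1, Cdc20, Plk1 and Mki67, where 3 UMIs would be 18.4 CPM. Acinar enzymes stood at 671 against 3428 CPM in the Chga class, with a median of 2 against 3 UMIs per cell. The highest single cell held 56 of these UMIs in the control and 439 in the library labelled knockout. The part of these enzymes in the values of this class was not tested.

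In mesenchyme the list was near its control level in every role. The log2 ratios of all 56 members lay between -0.36 and 0.34, 36 higher and 20 lower. Lbr, an inner nuclear membrane protein, was lowest at 33.2 against 24.7 CPM, and Tubb4b followed Hjurp at -0.25. Ttk, a kinase of the spindle checkpoint, gave the highest ratio at 9.87 against 13.8 CPM, and Tmpo, a nuclear lamina protein, stood at 90.4 against 113 CPM. These differences are small beside those of tip and mesothelium, and with 1 embryo each their spread between embryos is not known. Haemoglobin and other erythroid markers were higher in the library labelled knockout in each class, at 165 against 352 CPM in tip and 818 against 1662 CPM in mesenchyme. In mesenchyme a single cell held 10571 of these UMIs in the control and another 12457 in the library labelled knockout, and without them the levels were 182 against 873 CPM, with a median of 1 against 3 UMIs per cell. The part of erythroid RNA in the results was not tested, and the list made up 0.425% against 0.444% of the UMIs that are not haemoglobin in barcodes of red blood cells.

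The lower level in tip and trunk was also seen when the epithelial cells without Neurog3 or Chga gates were divided more finely by acinar enzymes. The ranges below 30 enzyme UMIs divide the trunk class and those from 30 up the tip class. The list took 0.775% against 0.553% of UMIs in cells with 0 to 2 enzyme UMIs, 0.732% against 0.443% with 3 to 9, 0.902% against 0.694% with 10 to 29, 0.807% against 0.363% with 30 to 99, and 0.680% against 0.463% with 100 or more. It was lower in the library labelled knockout in each of the 5 ranges.

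Other genes of the same phase, 50 genes outside the list, gave smaller counts in the same classes. Of those measured, 23 of 48 were at least 1.5-fold lower in tip, 10 of 48 in trunk and 26 of 47 in mesothelium, with medians of -0.56, -0.35 and -0.64. The shares of all genes that much lower were 2.69%, 3.2% and 4.4%. In mesenchyme 0 of 50 were, with a median of 0.024, where 0.809% of all genes were. The lowest in the epithelium were Kif22 (50.1 against 25.1 CPM) and Kif20a (32.8 against 16.9), both mitotic kinesins, and Racgap1 (57.3 against 32.1), a partner of Kif23. The highest were Pttg1, which encodes securin (38.8 against 46.4 CPM), Kif18a (8.60 against 9.20) and the inhibitory kinase gene Wee1 (3.48 against 3.65). The genes of DNA synthesis differed less than the list. The 38 S phase genes took 0.367% against 0.302% of UMIs in tip, a ratio of 0.821 (0.801 to 0.843). In trunk they took 0.373% against 0.378%, a ratio of 1.01 (0.984 to 1.04). In mesothelium they took 0.309% against 0.267%, a ratio of 0.865 (0.834 to 0.898), and in mesenchyme 0.227% against 0.240%. None of the 38 was at least 1.5-fold lower in tip or trunk, where 2.69% and 3.2% of all genes were, and 3 were in mesothelium, where 4.4% were. In the other direction 2 were at least 1.5-fold higher in trunk, where 2.65% of all genes were. In mesothelium 1 was, where 3.8% were, and in tip 0, where 2.7% were. Thinned cells with at least 10 UMIs of S phase genes were 55.1% against 31.9% in tip, 42.2% against 45.1% in trunk and 30.5% against 26.2% in mesothelium. In tip the cells that were high for neither list were 26.8% against 57.7%. Of the genes of cell cycle exit, Cdkn1c, an inhibitor of cyclin-dependent kinases, stood at 76.9 against 132 CPM in tip, 151 against 191 in trunk, 347 against 539.7 in mesothelium and 1122 against 1353 in mesenchyme. It was the only one of 7 measured in tip that was at least 1.5-fold higher, where 2.7% of all genes were. Cdkn1a, another such inhibitor, stood at 1206 against 1182 CPM in cells with at least 5 Neurog3 UMIs and at 98.8 against 105 in tip, but at 121 against 89.97 CPM in trunk and 609 (549 to 674) against 294 (217 to 390.2) CPM in the Chga class.

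The authors' deposited table of cluster markers gives averages for 7 clusters and no value per library, and it lists members too. Its column of log folds names no base, and the base is taken here as natural from the Seurat versions in the submitters' processing notes. In the authors' deposited table, cluster 2 lists 53 of the 56 genes, each with a higher average than in the other cells, led by Ube2c at an average natural log fold of 1.84, Cenpf at 1.52 and Top2a at 1.35. The authors' deposited table gives Ube2c in a fraction of 1.0 of the cells of cluster 2 and Ccnb1 in 0.957. In the authors' deposited table, cluster 6, where Cpa1 was higher (1.11), lists 14 of the genes and all 14 as higher, while cluster 3, where Cpa1 was also higher (1.42), lists 28 and all 28 as lower. Acinar-marked cells thus fall in a cluster with more and one with fewer of these transcripts. In the authors' deposited table the Neurog3 cluster 4 lists 28 of the genes as lower, and cluster 1, which has the highest Chga fold (2.16), lists 25 as lower and Tubb4b alone as higher (0.25). The authors' deposited table holds 370 entries for cluster 2, 499 for cluster 6 and 420 for cluster 3. It holds 1194 for cluster 4 and 1561 for cluster 1, so counts of members cannot be compared directly between clusters.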

How the data were processed

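UMI counts per gene and barcode were deposited by the authors as 1 matrix per library. Cell Ranger, and Seurat 2 and 3 without a role, are named per the submitters' processing notes, and the libraries are 10x Chromium 3' version 2 per the labels. The authors' deposited marker table gives an average log fold per cluster, whose base is not stated and is taken here as natural log, and the fraction of cells with a gene, while the p-values it lists, computed over cells, were set aside.
Barcodes with fewer than 500 genes, fewer than 1000 UMIs or over 10% mitochondrial UMIs were left out, as were the highest scores against simulated doublets (0.8% per 1000 barcodes, seed 0). That removed 29 and 32 barcodes at the filter and 122 and 74 as doublets. Classes came from UMIs of marker genes, with at least 10 for epithelium, 20 for immune cells and 5 for the other classes, set from the markers' own distributions. Counts were summed per class and library and scaled to CPM over all genes. Exact Poisson, exact Clopper-Pearson and log-normal ratio intervals are at 95%. Zero counts used a floor of 3 UMIs. Ratios used a pseudocount of 5 CPM. Thinning used 3000 UMIs and left out 28 and 35 mesenchymal and 1 trunk cell among others. The scripts were tested on simulated data. Genes were named by a fixed rule, namely the 4 highest levels and the 3 highest and 3 lowest ratios among members of at least 20 CPM in each main class, 6 core genes and 4 gene pairs, and the other members complete their roles. The members and gene lists were chosen with earlier results of these data known. Alternatives covered the cell filter, doublets, gates, scaling, pseudocount, minimums, folds and thinning. Python 3.11.15, numpy 2.4.6, scipy 1.17.1, pandas 2.3.3, scikit-learn 1.9.0 and matplotlib 3.10.9 were used.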

Additional observations from a re-analysis of the deposited data

Results flagged for a closer look

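The UMI share of the 56 genes went opposite ways in mesenchyme and in several other classes of the same embryos. In mesenchyme the log2 ratio of the library labelled knockout over the control was 0.067. In the epithelium as a whole it was -0.53, in tip -0.76, in trunk -0.50, in cells with 1 to 4 Neurog3 UMIs -0.54, in cells with at least 3 Chga UMIs -0.68 and in mesothelium -0.85. Across the settings tried, the value ranged from -0.65 to -0.056 with 1 to 4 Neurog3 UMIs and from -1.22 to -0.13 in the Chga class. With 1 library on each side, the difference between mesenchyme and these classes was not tested. Mesenchyme was not the only class without a lower share. Cells with at least 5 Neurog3 UMIs gave a log2 ratio of 0.0069, and endothelium, from few cells, stood higher in the library labelled knockout. Within mesenchyme the share was lower in the subsets with Isl1 or Wt1, as given below.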

How the results depend on the processing

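Of 390 recomputed values for classes, 296 stayed within the main value's counting interval (counts within 1.5 times), 87 moved beyond it and 7 reversed. Of 616 values for single members 586 stayed, 23 moved and 7 reversed. A reversal was counted only where the main interval left out 0, or a single member was past 1.5-fold. Values near 0 could thus change sign uncounted. With at least 5 Neurog3 UMIs the share kept its sign in 4 of 11 settings, and the high cells in 8 of 12. The cause was not tested for any of them unless the setting itself makes it. Values below are log2 ratios of the library labelled knockout over the control (of the share of UMIs, of high cells or of late per early UMIs) and counts of members at least 1.5-fold lower.
Doubled marker minimums gave shares of -0.59 in epithelium, -0.80 in tip, -0.58 in trunk, -0.35 in cells with 1 to 4 Neurog3 UMIs, -0.71 with at least 5, -0.13 in the Chga class, 0.084 in mesenchyme and -0.77 in mesothelium, late per early of -0.17 and -0.16 in the Neurog3 classes, counts of 12, 30 and 1 in the Neurog3 and Chga classes, and Ube2c at 1.18 and Cenpf at 1.89 in the Chga class. Gates per 10000 UMIs gave shares of -0.55 in trunk, -0.31 and -0.66 in the Neurog3 classes and -0.16 in the Chga class, late per early of -0.17, -0.30 and -0.076, counts of 6, 33 and 1, Ube2c at 0.89 and Cenpf at 1.14 in the Chga class, and Kif2c at -0.16 with at least 5 Neurog3 UMIs. Epithelial gates after thinning gave shares of -0.55 in trunk, -0.056 with 1 to 4 Neurog3 UMIs and -1.22 in the Chga class, late per early of -0.47 in tip and 0.63 with 1 to 4 Neurog3 UMIs, and counts of 7 and 20 in the last 2 classes.
A doubled doublet rate gave shares of -0.22 with at least 5 Neurog3 UMIs and -0.23 in the Chga class, late per early of -0.046 and 0.11, counts of 13 and 1, and Ube2c at 0.85 and Cenpf at 1.204 in the Chga class. No doublet removal gave shares of 0.081 in mesenchyme and -0.78 in mesothelium. Means over cells gave shares of -0.46 in epithelium, -0.83 in tip, -0.38 in trunk and 0.11 in mesenchyme, and late per early of 0.0056 in mesenchyme. Leaving out the broadly expressed members gave shares of -0.58 in epithelium, -0.81 in tip, -0.55 in trunk, -0.61 with 1 to 4 Neurog3 UMIs, -1.08 in the Chga class, 0.086 in mesenchyme and -0.90 in mesothelium. Leaving out haemoglobin, mitochondrial and ribosomal genes gave -0.49 in epithelium. Leaving out Hmgb2 and Ube2c gave late per early of -0.28 in epithelium, -0.30 in trunk, 0.010 in mesenchyme and -0.52 in mesothelium.
High cells at 10 UMIs gave -0.28 in epithelium and 0.035 in trunk, at 40 UMIs -1.30 in epithelium, -1.31 in trunk, -1.65 with 1 to 4 Neurog3 UMIs and -1.64 in mesothelium, and without thinning 0.033 in epithelium, -0.28 in tip and 0.071 in trunk. A fold of 1.2 gave counts of 49 in epithelium, 48 in trunk, 41 and 11 in the Neurog3 classes, 8 in the Chga class and 2 in mesenchyme, and a fold of 2 gave 1 in epithelium, 13 in tip, 3 in trunk, 5 and 0 in the Neurog3 classes, 3 in the Chga class and 18 in mesothelium. A minimum of 1 UMI gave 35 in the Chga class, and one of 100 UMIs 12, 0 and 1 in the Neurog3 and Chga classes. With at least 5 Neurog3 UMIs, TMM scaling and a pseudocount of 1 each gave 4 and a pseudocount of 20 gave 1, which also gave 10 in epithelium.
Of alternatives chosen after seeing the data, equal class shares gave -0.56 in epithelium. A tip gate of 100 gave -0.56 and a count of 26 in tip and -0.73 and 42 in trunk. Leaving out the cell of the highest sum in each library gave -0.65 and -0.12 in the Neurog3 classes, -0.23 in the Chga class and -0.88 in mesothelium. No paired analysis was possible because each group is 1 library. Depth limits the Chga class most, where 42 members were under 20 UMIs, and small classes of 21 to 54 cells leave wide intervals.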

Other observations

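Outside the epithelium, mesenchyme and mesothelium, 3 small classes held the list at other levels. In endothelium (25 against 33 cells) it took 0.173% against 0.533% of UMIs, a ratio of 3.08 (2.78 to 3.42), from few cells in either library. High cells were 0 of 25, which allows a share of up to 12.0% by 3 counts of the total (exact upper bound 13.7%), against 7 of 33 (21.2%, 8.98 to 38.9), and a single cell held 19.2% of the list's UMIs in the library labelled knockout. Immune cells (79 against 19) held 0.607% against 0.658% and neural cells (28 against 40) 0.667% against 0.663%. In neural cells Cdkn1c, an inhibitor of cyclin-dependent kinases, stood at 337 against 1262 CPM. These values rest on few cells of 1 embryo each.

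Mesenchyme was not even within itself. Mesenchymal cells with a UMI of Isl1, a transcription factor, held 0.707% against 0.612% and those without one 0.457% against 0.503%. Cells with a UMI of Wt1, a transcription factor of the mesothelium, held 0.682% against 0.594% and those without one 0.485% against 0.524%. Cells with a UMI of Lum, a matrix proteoglycan, held 0.541% against 0.601% and those without one 0.491% against 0.508%. The share was thus lower in the library labelled knockout in cells with Isl1 and in cells with Wt1, and higher in the other 4 subsets. High cells were 24.8% against 22.0% with Isl1 but 24.1% against 24.6% with Wt1, so for Wt1 the measures went different ways. No difference between subsets was tested.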
